A study of Mus musculus with 9 samples.

Results

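The type I interferon antiviral genes were examined in RNA sequencing of bone marrow endothelial progenitor cells (EPCs). They are a set of 43 genes, taken by symbol from the tables of 3 comparisons, of which 29 had a row in at least 1 table. EPCs came from C57BL/6J mice aged 8 weeks, either males (M-EPCs), intact females (F-EPCs) or females whose ovaries had been removed at about 35 days of age (OVX-EPCs), and each of the 3 groups had 3 libraries. Cells of all groups were, by the study's methods, depleted of lineage-positive cells, selected magnetically for Sca-1 and CD31 and grown in EGM-2 medium without estrogen, although the labels also call them freshly isolated. The labels do not say how many mice went into a library, or whether libraries of a group came from separate animals, so errors measure the spread between libraries, which may be technical. A bulk library cannot separate fewer cells of a type from less RNA per cell.

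Type I interferons are secreted proteins that warn cells of virus infection. They bind a receptor of the subunits Ifnar1 and Ifnar2, and the kinases on it phosphorylate Stat2, which joins Irf9 in a complex that binds interferon-stimulated response elements in the promoters of the genes that respond. The products of these genes recognize foreign RNA, degrade or trap it, block viral entry and replication, or feed back on the pathway. Many of the genes also keep a low level of transcription in cells that meet no virus.

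Promoter sequences of a few members are printed here because the members that had a row against OVX-EPCs were all on the same side there. A RefSeq window from 250 bases before to 50 bases after the start site, on GRCm38.p6, was available for 32 of the 43 genes. The core of the interferon-stimulated response element, read as GAAA, any 2 bases and GAAA on either strand, was found in 19 of these 32 genes, beside 3.99% of 27025 genes with a window. It was found in 10 of the 19 matched genes that had a row in a table and in 9 of the 13 that had none. The core of the gamma-activated site, TTCNNNGAA, which both strands read alike, was found in 5 of the 32 genes, beside 9.55% of all genes. These matches are letters in a window and were not tested for binding. In these sequences, written 5′ to 3′ on the strand of the gene, capitals mark the response element core or its reverse complement. The windows are Ifit1 at chr19:34640639-34640938 on the plus strand, Ifit3 at chr19:34583279-34583578 on the plus strand, Isg15 at chr4:156200769-156201068 on the minus strand, Oas3 at chr5:120777610-120777909 on the minus strand, Rsad2 at chr12:26456403-26456702 on the minus strand and Irf7 at chr7:141266375-141266674 on the minus strand.
Ifit1: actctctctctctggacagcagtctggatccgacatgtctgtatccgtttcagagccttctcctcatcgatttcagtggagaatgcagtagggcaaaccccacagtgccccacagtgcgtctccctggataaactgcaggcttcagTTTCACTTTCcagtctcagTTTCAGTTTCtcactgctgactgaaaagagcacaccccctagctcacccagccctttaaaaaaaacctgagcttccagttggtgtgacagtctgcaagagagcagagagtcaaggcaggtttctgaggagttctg
Ifit3: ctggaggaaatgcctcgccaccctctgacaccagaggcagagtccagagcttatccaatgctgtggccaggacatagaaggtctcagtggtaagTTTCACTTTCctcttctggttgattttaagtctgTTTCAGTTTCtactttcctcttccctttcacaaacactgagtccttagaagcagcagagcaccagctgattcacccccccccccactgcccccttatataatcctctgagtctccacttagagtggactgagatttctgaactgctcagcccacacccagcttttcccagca
Isg15: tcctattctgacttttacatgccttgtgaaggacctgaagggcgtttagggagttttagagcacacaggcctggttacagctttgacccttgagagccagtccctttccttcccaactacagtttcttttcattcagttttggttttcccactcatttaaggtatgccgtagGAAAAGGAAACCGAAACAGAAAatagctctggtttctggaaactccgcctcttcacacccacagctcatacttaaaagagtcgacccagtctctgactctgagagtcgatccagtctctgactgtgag
Oas3: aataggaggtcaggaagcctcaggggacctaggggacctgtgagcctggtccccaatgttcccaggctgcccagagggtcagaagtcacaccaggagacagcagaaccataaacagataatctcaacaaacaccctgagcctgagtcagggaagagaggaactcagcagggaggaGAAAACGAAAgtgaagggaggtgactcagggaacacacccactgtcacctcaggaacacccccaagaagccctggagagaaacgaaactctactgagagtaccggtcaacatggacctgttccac
Rsad2: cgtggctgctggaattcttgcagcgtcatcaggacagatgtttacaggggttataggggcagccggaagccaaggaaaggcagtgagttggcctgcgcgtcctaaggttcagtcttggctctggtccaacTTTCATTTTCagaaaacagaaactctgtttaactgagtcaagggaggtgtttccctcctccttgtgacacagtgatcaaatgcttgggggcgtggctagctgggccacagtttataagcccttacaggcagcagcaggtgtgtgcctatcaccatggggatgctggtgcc
Irf7: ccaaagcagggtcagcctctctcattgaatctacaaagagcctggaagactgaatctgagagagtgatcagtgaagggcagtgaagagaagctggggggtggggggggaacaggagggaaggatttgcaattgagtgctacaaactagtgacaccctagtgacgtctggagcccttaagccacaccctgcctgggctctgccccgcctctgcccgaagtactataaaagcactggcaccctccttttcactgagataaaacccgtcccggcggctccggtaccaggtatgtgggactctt

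The Ifit1 and Ifit3 windows each held 2 separate matches, and the Isg15 window held 3 matches that overlap in a single run. Oas3 and Rsad2 held 1 match each, and the Irf7 window held 0 matches, which says only that these letters are not in it.

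Each table lists genes past the screen of the authors on fold change and false discovery rate, which left 2093 genes for M-EPCs against F-EPCs, 1317 for M-EPCs against OVX-EPCs and 811 for F-EPCs against OVX-EPCs, 2810 genes in all. The values are normalized counts, which are reads over a size factor of the library, set anew by the authors in every table, and the listed genes drew between 454298 and 2070442 reads per library. A gene without a row either did not pass the screen or was not measured, and these cannot be told apart. Since nearly every listed gene passed again when limma was fitted here (adjusted p under 0.05 and a change of at least 1 on the log2 scale), calls describe selected genes and support nothing further. The limma adjusted p is Benjamini-Hochberg over all listed genes of a table, and an exact permutation test of 3 libraries against 3 cannot give a p under 0.10. The endothelial label was checked against 10 markers. Kdr, Tie1, Vwf and Esam were listed as lower in M-EPCs than in both other groups, and for Kdr the log2 fold change against F-EPCs was -2.38 ± 0.12. Pecam1, which encodes the CD31 used for selection, was higher in M-EPCs (489, 489 and 483 normalized counts) than F-EPCs (166, 156 and 151), and was lower in F-EPCs than OVX-EPCs (-1.21 ± 0.11), a difference that shrank to -0.0775 by TMM and -0.0855 by the median of ratios and no longer passed with size factors recomputed from the listed genes. Cdh5, Tek, Emcn, Eng and Cldn5 had no row.

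Members listed against OVX-EPCs were all lower in OVX-EPCs. Between M-EPCs and OVX-EPCs, 23 of the 43 members had a row, and 23 of 23 were higher in M-EPCs, by log2 fold changes from 1.05 (Dhx58) to 2.19 (Mx1) with a median of 1.54. Between F-EPCs and OVX-EPCs, 24 of the 43 had a row, and 24 of 24 were higher in F-EPCs, from 1.19 (Oas1c) to 2.44 (Usp18) with a median of 1.57. Over all listed genes the balance ran the other way, with a median of -1.26 against OVX-EPCs for M-EPCs and -1.31 for F-EPCs on the size factors of the authors. With size factors recomputed from the listed genes by TMM or the median of ratios, these medians were -1.06 and -0.64 for M-EPCs and -0.19 and -0.20 for F-EPCs, and in the F-EPC comparison the genes passing became more often higher (255 for both) than lower (145 and 148). The members' medians moved with them, to 1.74 and 2.17 for M-EPCs and 2.70 and 2.69 for F-EPCs. All 23 members passed the call in the first of these tables, where 98.8% of the listed genes passed, 41.7% were higher in M-EPCs and 40.8% passed as higher. All 24 members passed in the second, where 98.2% passed, 31.4% were higher in F-EPCs and 30.8% passed as higher. The largest adjusted p of a member was 0.00325 (Ifit1bl1) in the first and 0.00288 (Oas1b) in the second. Both tables use the same OVX-EPC libraries, so their counts are not independent of each other.

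Between M-EPCs and F-EPCs the members were few and divided. Of the 43 members, 8 had a row, of which 3 were higher in M-EPCs (Ifit1bl1, Ifit2 and Zbp1) and 5 were lower (Oasl1, Usp18, Oas1c, Oas1g and Ifi27l2a). The call passed 3 as higher, and 4 as lower. Over all genes of that comparison 49.8% were higher and 50.2% lower in M-EPCs, 48.4% passed as higher, 49.3% as lower and 97.6% in all. With size factors recomputed by the median of ratios, 620 of the 2093 genes passed as higher and 1047 as lower, and 2 members as higher and 5 as lower. There Oas1c passed (-1.51) and Ifit2 (0.67) did not. On the size factors of the authors, Oas1c was the listed member that did not pass (adjusted p = 0.051 by limma). The median log2 fold change of the 8 was -1.07, beside -0.99 over all listed genes. In all 3 tables the libraries of the groups did not overlap for any listed member, as for 98.3% of the genes in this table, 99.2% in that of M-EPCs with OVX-EPCs and 98.9% in that of F-EPCs with OVX-EPCs.

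**Figure D1:**
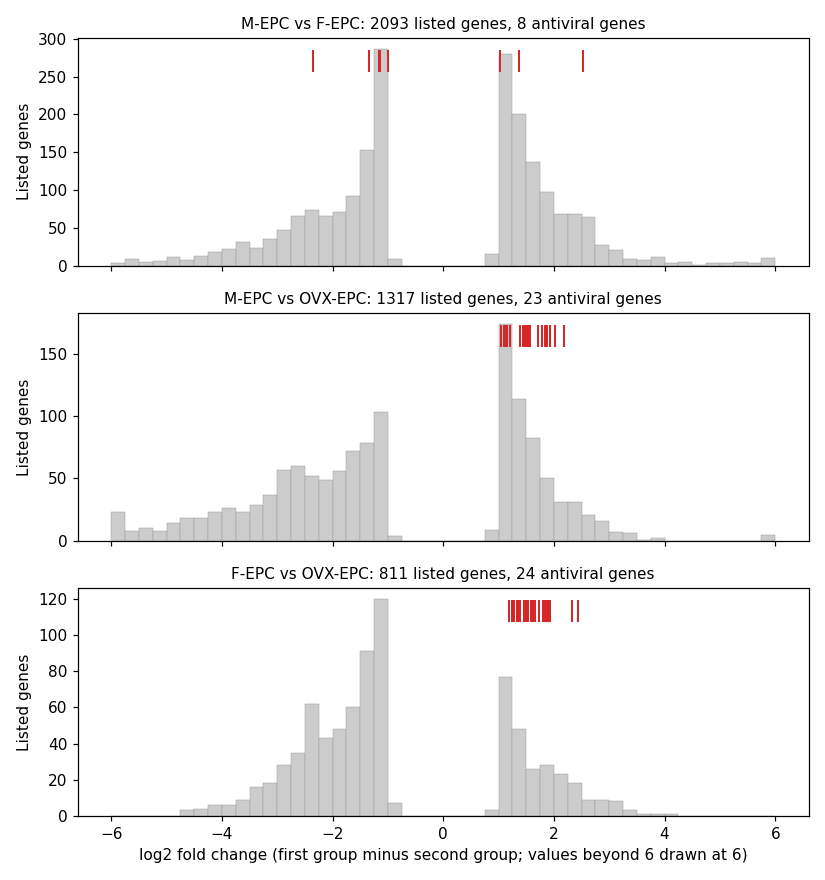
Histograms of the log2 fold changes of all listed genes in the 3 tables (x axis, log2 fold change of the first group minus the second; y axis, number of listed genes), with a red tick for each antiviral gene. All ticks of the 2 tables with OVX-EPCs lie on the positive side, between 1.05 and 2.44, and those of M-EPCs against F-EPCs lie on both sides.

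For members with a row in several tables the reads of a library were the same in each table, so reads in all 9 libraries were known for 25 members. In what follows the normalized counts of these members, in the order of libraries 1 to 3, were set on the size factors of the M-EPC and OVX-EPC table, and each log2 fold change with its SE comes from the table of its own pair. Tables were normalized separately, so a difference set across tables has no test. On this scale OVX-EPCs had the lowest mean for 23 of the 25 members, and for 22 of them each OVX-EPC library lay below all 6 others. All 25 members were listed as lower in OVX-EPCs in at least 1 table, so the screen went far to fix this order. Over all 1288 genes with reads in the 9 libraries the shares were 14.6% and 5.82%, and over the 522 of them listed as lower in OVX-EPCs in at least 1 table they were 36.0% and 14.4%. M-EPCs had the highest mean for 13 and F-EPCs for 12.

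**Figure D2:**
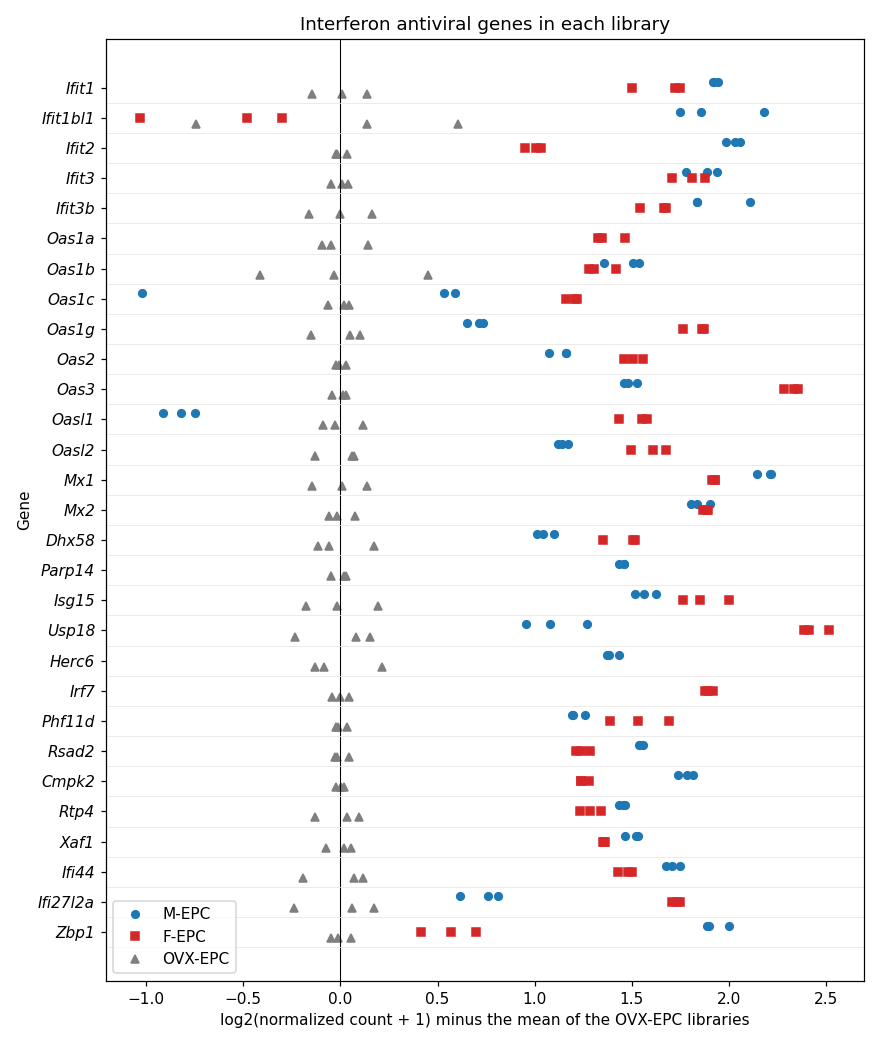
Level of each antiviral gene in each library, as log2(normalized count + 1) minus the mean of the OVX-EPC libraries (x axis), with genes in rows grouped by family; Oas1a and Irf7 have no M-EPC values, and Parp14 and Herc6 no F-EPC values. M-EPCs and F-EPCs lie right of OVX-EPCs for most genes, whereas Oasl1 in M-EPCs and Ifit1bl1 in F-EPCs lie left of zero, where the mean difference of the latter turns with recomputed size factors.

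The recognition of viral RNA and its relay to interferon genes rest on the RIG-I-like receptors and on the transcription factor Irf7, the master regulator of interferon alpha production. Of the 3 RIG-I-like receptors, Dhx58 (LGP2, which modulates the other two) was the single member with a row. The Dhx58 levels were 1569, 1536 and 1634 normalized counts for M-EPCs, 2178, 2163 and 1946 in F-EPCs and 733, 703 and 859.6 in OVX-EPCs. The 3 groups did not overlap, with log2 fold changes of 1.05 ± 0.14 for M-EPCs and 1.46 ± 0.13 for F-EPCs against OVX-EPCs. The signalling receptors Ddx58 (RIG-I) and Ifih1 (MDA5) had no row in any table. Irf7 was listed between F-EPCs and OVX-EPCs, where its levels were 8682, 8849.7 and 8616 in F-EPCs and 2341, 2268 and 2424 in OVX-EPCs on the scale of that table. Each F-EPC library was above each OVX-EPC library, by a log2 fold change of 1.89 ± 0.10 (adjusted p = 0.000108). Stat2, the other transcription factor among the members, had no row.

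The Ifit genes lie side by side on chromosome 19, between positions 34550694 and 34650009 of GRCm38, and encode proteins that bind viral RNA lacking the methylation of host caps or block translation. All 5 were higher in M-EPCs than OVX-EPCs. The largest of these 5 changes was that of Ifit2, with 10459, 10113 and 10626 normalized counts for M-EPCs, 5149, 4935 and 5233 in F-EPCs and 2531, 2621 and 2524 in OVX-EPCs. The groups did not overlap and fell in this order, with log2 fold changes of 2.02 ± 0.12 against OVX-EPCs and 1.02 ± 0.09 against F-EPCs. The latter fell under the fold threshold with the median of ratios (0.67) and without F-EPC replicate 2 (0.999). Ifit2 had no row between F-EPCs and OVX-EPCs, where the difference set across tables was 0.996, or 2.13 with TMM and 2.12 with the median of ratios.

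Ifit3 held 2396, 2224 and 2482 normalized counts for M-EPCs, 2376, 2275 and 2117 in F-EPCs and 651, 627 and 665 in OVX-EPCs. Here M-EPCs and F-EPCs overlapped and both lay far above OVX-EPCs, by 1.87 ± 0.12 and 1.80 ± 0.11 on the log2 scale. Ifit1 rose by 1.93 ± 0.13 in M-EPCs and by 1.66 ± 0.14 in F-EPCs against OVX-EPCs, and Ifit3b by 1.93 ± 0.16 and 1.63 ± 0.13. Ifit3 and Ifit3b share sequence, with 51.2% of the 50-base words of Ifit3 transcripts found in another gene, so reads could be divided between them and their separate values are uncertain.

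Ifit1bl1 did not follow the other Ifit genes in F-EPCs. Its levels were 105, 142 and 114 normalized counts for M-EPCs, 24.7, 21.7 and 14.5 in F-EPCs and 47.2, 17.9 and 33.8 in OVX-EPCs. M-EPCs were above both other groups, by 2.52 ± 0.23 against F-EPCs and 1.93 ± 0.37 against OVX-EPCs, while F-EPCs and OVX-EPCs overlapped.

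The Oas genes encode synthetases that answer double-stranded RNA by making the messenger that activates RNase L, and the Oasl genes encode relatives with ubiquitin-like domains. Oas1a, Oas1b, Oas1c, Oas1g, Oas2 and Oas3 lie between positions 120730333 and 120907521 of chromosome 5, and Oasl1 and Oasl2 between 114896936 and 114937915. All 8 were higher in F-EPCs than OVX-EPCs, and 4 of them (Oas1b, Oas2, Oas3 and Oasl2) had a row as higher in M-EPCs than OVX-EPCs. Against OVX-EPCs, Oas3 had the largest change of the Oas genes in both comparisons, with 4872, 4646 and 4711 normalized counts for M-EPCs, 8527, 8631 and 8230.2 in F-EPCs and 1708, 1640.4 and 1721 in OVX-EPCs. F-EPCs were highest and OVX-EPCs lowest without overlap, and the log2 fold changes against OVX-EPCs were 2.32 ± 0.11 for F-EPCs and 1.49 ± 0.12 for M-EPCs. For M-EPCs, Oas1b (1.47 ± 0.24) lay within the SE of Oas3, so their rank there is not settled.

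Oas2 followed the same order as Oas3, with 1.51 ± 0.11 for F-EPCs and 1.13 ± 0.12 for M-EPCs, as did Oasl2, with 1.59 ± 0.12 and 1.14 ± 0.13. Oas1b was about as high in M-EPCs (1.47 ± 0.24) as in F-EPCs (1.33 ± 0.24) against OVX-EPCs, and the libraries of M-EPCs and F-EPCs overlapped. C57BL/6 mice carry an Oas1b allele with a premature stop, so these are levels of a transcript that encodes a truncated protein. Oas1g was lower in M-EPCs than F-EPCs, at a log2 fold change of -1.13 ± 0.09, and higher in F-EPCs than OVX-EPCs, at 1.83 ± 0.13. Oas1a was listed in F-EPCs against OVX-EPCs alone, at 1.38 ± 0.12. Oas1a and Oas1g share 57.6% and 54.7% of their 50-base words with other genes, mostly with each other, and are uncertain for that reason.

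Oasl1, which encodes a protein that restrains the translation of Irf7, was the Oas gene furthest below F-EPCs in M-EPCs. Its levels were 476, 501 and 447 normalized counts for M-EPCs, 2275, 2469 and 2514 in F-EPCs and 911, 792 and 825 in OVX-EPCs. The 3 groups did not overlap, and M-EPCs were lowest, at -2.35 ± 0.10 on the log2 scale against F-EPCs (adjusted p = 4.2e-05), while F-EPCs stood above OVX-EPCs by 1.52 ± 0.12. Oasl1 had no row between M-EPCs and OVX-EPCs, where the difference set across tables was -0.83, which shrank to -0.63 with size factors recomputed by TMM and -0.20 by the median of ratios. Oas1c was the least settled Oas gene, with 75.0, 23.9 and 72.0 in M-EPCs, 115, 112 and 116 in F-EPCs and 50.1, 50.9 and 47.3 in OVX-EPCs. The second M-EPC library fell below the OVX-EPC libraries and the other two above them, so M-EPCs and OVX-EPCs overlapped, and the log2 fold change of M-EPCs against F-EPCs was -1.16 ± 0.46. Without the second M-EPC library it was -0.63.

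Mx1 and Mx2, on chromosome 16 at chr16:97447035-97462907 and chr16:97535308-97560900, encode dynamin-like GTPases that trap viral components in the nucleus and in the cytoplasm. Mx1 held 1699, 1698 and 1619 normalized counts for M-EPCs, 1395, 1392 and 1379 in F-EPCs and 368, 403 and 329.9 in OVX-EPCs. It was the member with the largest change between M-EPCs and OVX-EPCs (2.19 ± 0.14, adjusted p = 8.85e-05) and was also higher in F-EPCs (1.92 ± 0.12). C57BL/6 mice carry a deletion in Mx1 that removes a functional protein, so its transcript does not stand for a working protein. Mx2 was higher by 1.85 ± 0.12 in M-EPCs and 1.88 ± 0.11 in F-EPCs against OVX-EPCs, with M-EPC and F-EPC libraries that overlapped.

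Isg15 is a ubiquitin-like protein that is attached to other proteins, Herc6 is the ligase of mouse cells that attaches it, and Usp18 removes it and blocks signalling at the interferon receptor. Usp18, at chr6:121245906-121270917, was the one member with a row in all 3 tables. Its levels were 239.6, 298 and 261 normalized counts for M-EPCs, 708, 658 and 646 in F-EPCs and 137, 105 and 130.2 in OVX-EPCs. The groups did not overlap and F-EPCs were highest, 2.44 ± 0.15 above OVX-EPCs (adjusted p = 0.000126), with 1.10 ± 0.17 for M-EPCs against OVX-EPCs and -1.34 ± 0.12 for M-EPCs against F-EPCs. Isg15 held 577, 595 and 621 in M-EPCs, 726, 806 and 684 in F-EPCs and 230.2, 198 and 178 in OVX-EPCs. M-EPCs rose by 1.57 ± 0.15 and F-EPCs by 1.87 ± 0.15 against OVX-EPCs, and each F-EPC library lay above each M-EPC library. Herc6 was listed between M-EPCs and OVX-EPCs at 1.40 ± 0.15, and 23.8% of its 50-base words occur in another annotated gene, so it is uncertain.

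Parp9, Parp14 and Dtx3l are neighbours on chromosome 16 whose products act on the ADP-ribosylation and ubiquitination of proteins in the interferon response. Parp14 was the single gene of this group with a row, between M-EPCs and OVX-EPCs, with 17564, 17897 and 17880.5 normalized counts in M-EPCs and 6594, 6653 and 6301 in OVX-EPCs. The groups did not overlap, with a log2 fold change of 1.45 ± 0.12. Among the Trim, Slfn, Phf11d and Sp100 genes, Phf11d alone of 6 had a row, at 840.5, 879.9 and 842 in M-EPCs, 1188, 1065 and 963 in F-EPCs and 361, 376 and 365 in OVX-EPCs. F-EPCs were highest and OVX-EPCs lowest, by 1.54 ± 0.13 for F-EPCs and 1.21 ± 0.12 for M-EPCs against OVX-EPCs. Phf11d shares 13.9% of its 50-base words with other genes, which leaves a part of its reads uncertain.

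The other effectors contributed 7 of 11 genes. Rsad2 (viperin, which makes a chain-terminating nucleotide) and its neighbour Cmpk2 (a nucleotide kinase) on chromosome 12 were higher in M-EPCs than OVX-EPCs by 1.54 ± 0.12 and 1.78 ± 0.12, and in F-EPCs by 1.25 ± 0.10 and 1.25 ± 0.10. Ifi44 rose by 1.71 ± 0.14 and 1.47 ± 0.13, Xaf1 (a proapoptotic protein) by 1.50 ± 0.12 and 1.36 ± 0.11, and Rtp4 by 1.45 ± 0.13 and 1.29 ± 0.12, in M-EPCs and F-EPCs respectively. Rtp4 shares 13.6% of its 50-base words with another gene. On the size factors of the authors each M-EPC library lay above each F-EPC library for these 5 genes, by differences from 0.14 (Xaf1) to 0.52 (Cmpk2), and for all but Cmpk2 the direction turned with size factors recomputed by the median of ratios.

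Zbp1, a sensor of left-handed nucleic acids that can start necroptosis, was highest in M-EPCs. Its levels were 3773, 3742 and 4050.1 normalized counts for M-EPCs, 1500.0, 1643 and 1349 in F-EPCs and 979.7, 1053 and 1004 in OVX-EPCs. No groups overlapped, and M-EPCs were higher than OVX-EPCs by 1.93 ± 0.12 and than F-EPCs by 1.36 ± 0.11, while the difference of F-EPCs from OVX-EPCs, set across tables, was 0.56, or 1.69 with both TMM and the median of ratios. Ifi27l2a, which encodes a small mitochondrial and nuclear membrane protein, was highest in F-EPCs instead. It held 1081, 978 and 1118 in M-EPCs, 2144, 2117 and 2078 in F-EPCs and 719.6, 541 and 665 in OVX-EPCs. F-EPCs were above OVX-EPCs by 1.73 ± 0.15, and M-EPCs were below F-EPCs at -1.001 ± 0.10, which lies at the call's fold threshold.

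**Figure D3:**
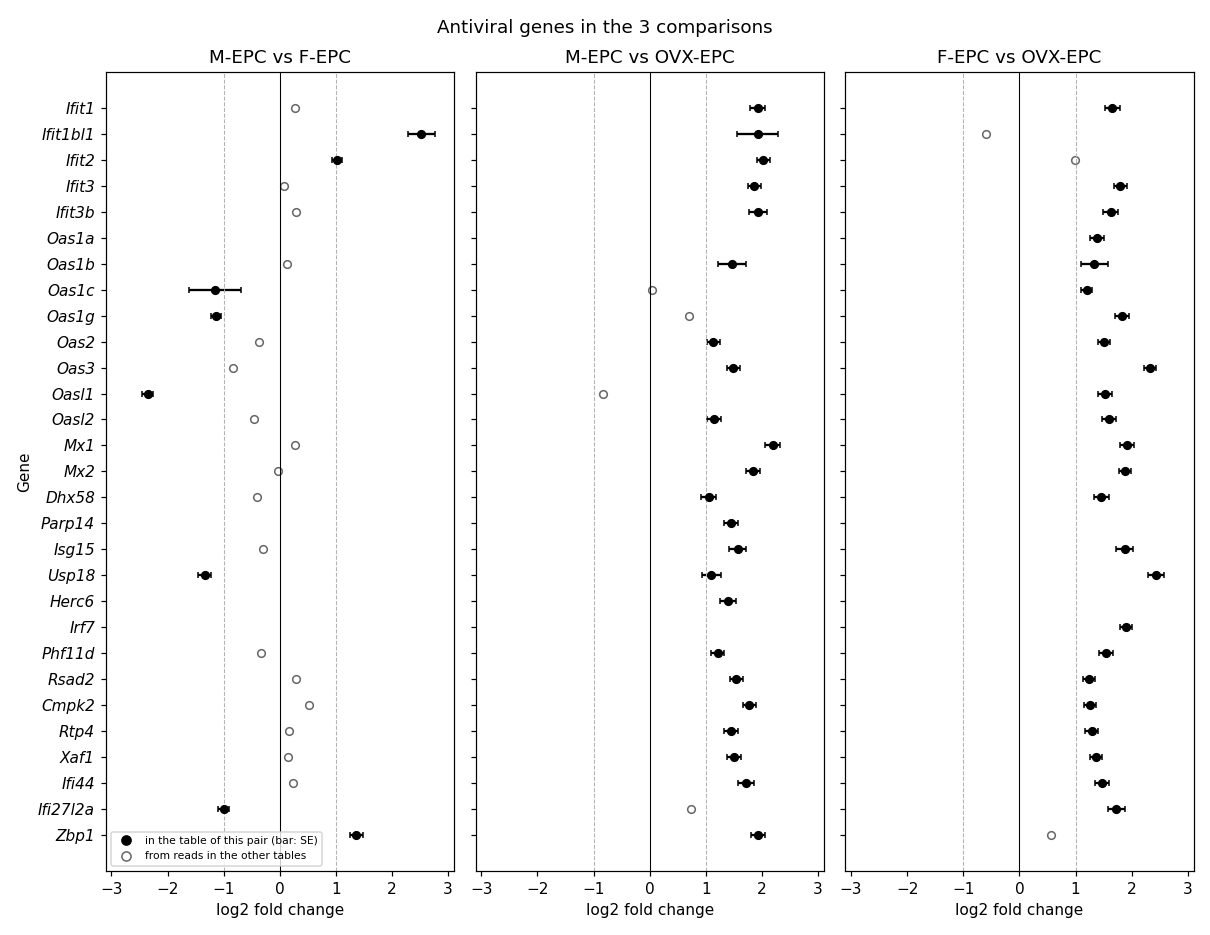
Log2 fold change of each antiviral gene (rows) in the 3 comparisons (panels), with filled points and SE bars where the gene has a row in the table of that pair and open points where reads from the other tables were used. Dashed lines mark 1 and -1; open points of the first panel lie between -0.84 (Oas3) and 0.52 (Cmpk2).

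On the size factors of the authors, the families did not all lie on one side between M-EPCs and F-EPCs, which was not tested and depends on the scale. Over the 25 members with all libraries, all 5 Ifit genes were higher in M-EPCs, from 0.07 (Ifit3) to 2.52 (Ifit1bl1), and 6 of 7 Oas genes were lower, from -2.35 (Oasl1), with Oas1b at 0.13. Both Isg15 and Usp18 were lower in M-EPCs, and 6 of the 7 other effectors were higher. Of these 25 values, 17 come from reads of the tables with OVX-EPCs and have no test. Among the 17, M-EPCs were higher for 10 and lower for 7, without overlap of libraries for 8 and 6 of them. Groups did not overlap for 25.4% of the 169 genes set across these tables in the same way. A change of scale moves every gene of a comparison by about the same amount, so the order of the genes stays while the zero point moves. With size factors recomputed by the median of ratios of the listed genes, the Ifit genes were higher in M-EPCs for 2 of 5, the Oas genes lower for 7 of 7 and the other effectors lower for 5 of 7, and 21 of the 25 members in all were lower in M-EPCs. The higher level of Ifit1, Ifit3, Ifit3b, Mx1, Oas1b, Rsad2, Rtp4, Xaf1 and Ifi44 in M-EPCs than F-EPCs turned to lower on that scale. The members' direction against OVX-EPCs in the tables did not turn with either recomputed set of size factors, and could not, since both moved those values further up.

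Few genes that act above the members had a row. Of 15 interferon ligands and receptors, Ifng, the type II interferon, was the single gene with a row, at 18.1, 18.9 and 19.1 normalized counts in M-EPCs and listed at 0 in every F-EPC library. Among the signal transduction genes, the feedback inhibitor Socs1 was higher in M-EPCs by 2.68 ± 0.12 and 2.34 ± 0.14, and Socs3 by 1.24 ± 0.10 against F-EPCs, while F-EPCs were below OVX-EPCs at -1.08 ± 0.10 for Socs3. With recomputed size factors the last difference turned in sign and did not pass (0.0412 by TMM and 0.0331 by the median of ratios), and that of Socs3 against F-EPCs fell under the fold threshold by the median of ratios (0.89). Irf1, of 7 interferon regulatory factors outside the members, was the one listed, at 7809, 7994 and 8035 in M-EPCs, 1189.9, 1233 and 1193 in F-EPCs and 3172, 2734 and 3149 in OVX-EPCs. Irf1 is a classic target of interferon gamma, and it was lower in F-EPCs than OVX-EPCs at -1.32 ± 0.12, where 24 of 24 listed antiviral members were higher. With size factors recomputed from the listed genes, that difference of Irf1 was -0.19 by TMM and -0.20 by the median of ratios and no longer passed. The 24 members passed as higher on all of these scales. Both recomputed sets moved the genes of this comparison up by about 1.10, so members already higher could only stay higher. Such factors rest on screened genes alone and cannot tell which scale is right. Irf9, Ifnb1, Ifnar1 and Ifnar2 had no row.

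**Figure D4:**
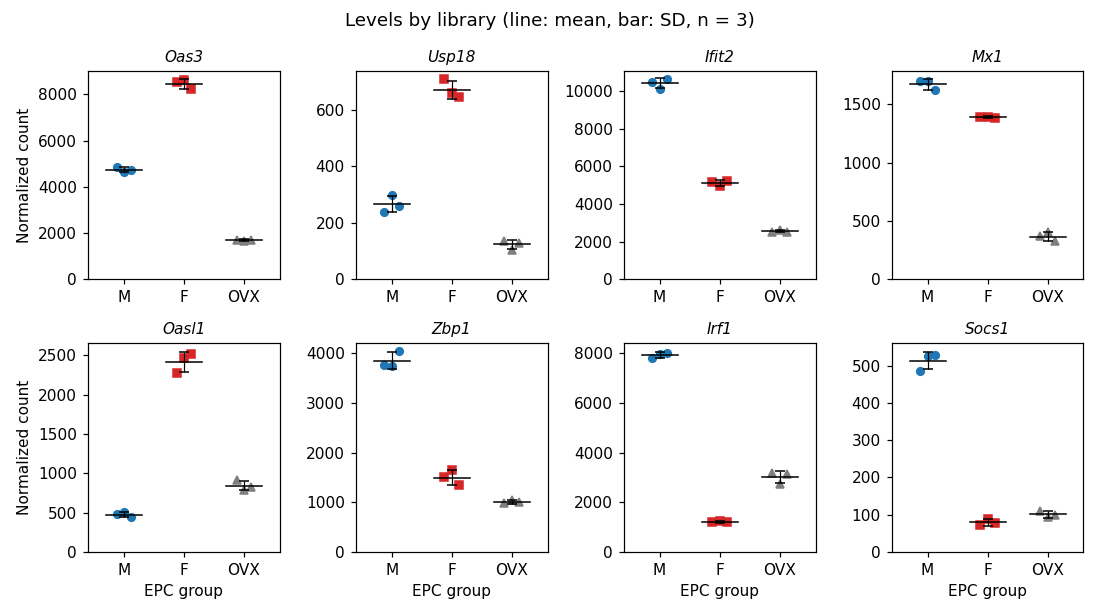
Normalized counts of 6 antiviral genes and of Irf1 and Socs1 in each library (points) with the mean (line) and SD (bar), n = 3 per group, on the size factors of the M-EPC and OVX-EPC table. Oas3, Usp18 and Oasl1 are highest in F-EPCs, Ifit2, Mx1, Zbp1, Irf1 and Socs1 in M-EPCs, and Irf1 is lowest in F-EPCs.

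Of 52 further interferon-induced antiviral genes, 12 had a row between F-EPCs and OVX-EPCs, and 12 of 12 passed as higher in F-EPCs, beside 30.8% of all listed genes there. The restriction factor Ifitm3 rose there by 1.51 ± 0.12, the helicase Helz2 by 1.78 ± 0.11 and Slfn1 by 2.41 ± 0.12. Between M-EPCs and OVX-EPCs 11 had a row, of which 10 passed as higher in M-EPCs, beside 40.8% of all listed genes, among them Gm4951 (1.93 ± 0.12) and the nucleotide hydrolase Samhd1 (1.51 ± 0.12), and Slfn4 passed as lower (-2.16 ± 0.30). Between M-EPCs and F-EPCs 12 had a row and divided into 6 passing as higher (3 with the median of ratios) and 6 as lower, beside 48.4% and 49.3% of all listed genes, with Slfn4 lowest at -4.10 ± 0.28 and Gm4951 among the higher at 1.92 ± 0.09. Of 16 genes of nucleic acid sensing, Tlr9 and Sting1 had a row, between M-EPCs and F-EPCs, and were higher in M-EPCs by 1.33 ± 0.08 and 1.06 ± 0.10, which fell under the fold threshold with the median of ratios (0.98 and 0.71).

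Markers of other cells moved with the groups as well. Of 8 neutrophil markers, 5 had a row between F-EPCs and OVX-EPCs, where their summed normalized counts were 574.9 to 631 in F-EPCs and 139 to 163 in OVX-EPCs (853 to 929 and 95.0 to 107 with TMM). Of these, S100a8, S100a9, Ltf and Ngp passed as higher in F-EPCs, beside 30.8% of all listed genes. The fifth, Elane, was at -2.39 ± 1.09 in the other direction and did not pass (adjusted p = 0.0738 by limma), although edgeR and DESeq2 passed it as lower, and without F-EPC replicate 3 it was -1.22. Ngp (1.05 ± 0.16) fell under the fold threshold without F-EPC replicate 3 (0.97) and without OVX-EPC replicate 1 (0.97) or 2 (0.995). Between M-EPCs and F-EPCs the 5 listed neutrophil markers summed to 78.0 to 106 in M-EPCs and 605 to 660.4 in F-EPCs. All 5 passed as lower in M-EPCs, beside 49.3% of all listed genes. The neutrophil markers listed for M-EPCs against OVX-EPCs were 3 (Elane, Mpo and Ngp), at sums of 23.4 to 53.3 in M-EPCs and 179 to 239 in OVX-EPCs. All 3 passed as lower in M-EPCs (2 with either recomputed set of size factors), beside 58.0% of all listed genes. Of 10 markers of plasmacytoid dendritic cells, which make much type I interferon, 4 had a row between F-EPCs and OVX-EPCs, with sums of 192 to 227 in F-EPCs and 273 to 321 in OVX-EPCs. These markers did not move together, since Cox6a2 passed as higher in F-EPCs (1.20 ± 0.18) and Ccr9, Pacsin1 and Siglech as lower, from -3.09 (Pacsin1) to -1.08 (Ccr9). Over all listed genes 30.8% passed as higher there and 67.3% as lower. With recomputed size factors the summed difference turned, to 292 to 336 in F-EPCs and 186 to 226 in OVX-EPCs by TMM, and Pacsin1 alone still passed as lower. Between M-EPCs and F-EPCs, 4 of 4 listed markers of these cells passed as lower in M-EPCs, beside 49.3% of all listed genes, at sums of 13.2 to 40.9 and 219.8 to 237. The 6 listed between M-EPCs and OVX-EPCs summed to 76.2 to 97.4 in M-EPCs and 441 to 497 in OVX-EPCs. Siglech, their defining marker, was at 0, 0.918 and 2.44 in M-EPCs and 76.1, 85.8 and 83.9 in OVX-EPCs. Of 10 markers of T and NK cells, 7 passed as lower in M-EPCs than OVX-EPCs and 3 as lower in F-EPCs, beside 58.0% and 67.3% of all listed genes, which became 6 and 1 with TMM and 5 and 1 with the median of ratios. Between M-EPCs and F-EPCs, Cd3e and Klrb1c passed as lower in M-EPCs, beside 49.3% of all listed genes. Of 8 markers of conventional dendritic cells, 4 passed as lower in M-EPCs than OVX-EPCs (3 with the median of ratios), beside 58.0% of all listed genes. Ccr7 alone had a row between F-EPCs and OVX-EPCs and passed as higher in F-EPCs, beside 30.8%. Between M-EPCs and F-EPCs, Ccr7, Cd209a and Flt3 passed as lower in M-EPCs and Batf3 as higher (1.11 ± 0.22), beside 49.3% and 48.4%. Batf3 did not pass with the median of ratios. Of 56 markers of all types, 24 had a row for M-EPCs against OVX-EPCs and 24 of 24 were lower in M-EPCs, beside 58.3% of all listed genes in that table, where 23 of 23 antiviral members were higher. For M-EPCs against F-EPCs 18 of 21 markers were lower, beside 50.2% of all listed genes, and for F-EPCs against OVX-EPCs 8 of 14 were lower, beside 68.6%. Of the 10 macrophage markers C1qa alone had a row, as higher in M-EPCs than F-EPCs, by 1.20 ± 0.09, or 0.85 and under the fold threshold with the median of ratios. C1qa held 20590, 19061.5 and 21051 normalized counts in M-EPCs and 9006, 8995 and 8415 in F-EPCs. Every endothelial marker listed there was lower, the highest being Pecam1 in M-EPCs (489, 489 and 483) and Vwf in F-EPCs (2338, 2306 and 2409). Levels of different genes were not corrected for transcript length. These markers were measured in cells that had been through lineage depletion, and the part of other cells in the antiviral levels was not tested.

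The 14 members with no row in the tables as analysed here were Isg20, Ddx58, Ifih1, Ifi44l, Trim30a, Trim30d, Parp9, Dtx3l, Stat2, Slfn5, Slfn8, Sp100, Bst2 and Eif2ak2. They include the RNA-activated kinase PKR (Eif2ak2), the virion tether tetherin (Bst2) and the exonuclease Isg20, and no level of theirs is known from these tables. For the Ifit, Oas and Mx genes and the Isg15 system all members had a row in some table, beside 1 of 3 RIG-I-like receptors, 1 of 3 Parp and Dtx3l genes, 1 of 2 transcription factors and 1 of 6 Trim, Slfn, Phf11d and Sp100 genes.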

How the data were processed

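RNA sequencing of 9 libraries, 3 per group, was analysed, with groups and replicate numbers from the labels. The authors mapped reads with HISAT2, quantified them with Cufflinks tools including Cuffnorm, and compared groups with DESeq. The build is mm10 in the submitters' processing notes, and the annotation, versions and use of strand in counting are not given in the sources used here. The authors deposited 1 table per pair of groups, in which the signal of a gene in a library is a normalized count, reads divided by a size factor set in each table. The size factor of a library was recovered from its smallest value above 0, taken as 1 read and refined by least squares over all values, and with it 100% of values came within 0.001 of whole reads in each library. The deposited log2 fold changes and p-values with adjusted p-values of the authors' own fit were not used, and no other column of library values was left out (0). The tables hold screened genes with normalized values, so limma 3.58.1 in R 4.3.3 was fitted to log2(normalized count + 1) of the 6 libraries in a table, without covariates, where edgeR had been planned for counts of all genes. The fit was run on simulated data in which most genes did not change, unlike the screened genes here, so that run does not bear on the calls. Calls needed an adjusted p under 0.05 over all listed genes and a change of at least 1 on the log2 scale in either direction. SEs are of the log2 difference.

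Alternatives were a pseudocount of 0.1, a mean of at least 10, size factors recomputed with TMM or the median of ratios, edgeR 4.0.16 and DESeq2 1.42.0 on recovered reads with the authors' size factors, other fold thresholds, a replicate block and leaving out each library. The checks of levels set across tables between M-EPCs and the other groups were chosen after seeing the data. So was the rescaling of all levels set across tables, including those between F-EPCs and OVX-EPCs. Members, lists of related genes and markers were chosen with earlier results of these data known. Values in each library are given for members listed in all tables, for the largest change of each family in each table and for members that ran against most of a table. Other listed members are given by log2 fold change. Gene positions came from GENCODE annotation of GRCm38, matched by symbol, and shared sequence was counted as 50-base words of annotated transcripts. Promoters came from RefSeq on GRCm38.p6. Libraries of a group differed beyond counting noise, so none was taken for a library deposited again, which does not show that they are biological replicates. Counts were compared with SciPy 1.17.1 and figures drawn with matplotlib 3.10.9. A gene of the pathway lists is not reported here.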

Additional observations from a re-analysis of the deposited data

How the results depend on the processing

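The members' fold changes in the tables kept their direction under every alternative run. Of the pathway and marker genes named, Socs3 (0.0412 with TMM, 0.0331 with the median of ratios) and Ccr9 (0.0458 and 0.0378) turned between F-EPCs and OVX-EPCs. With a change of at least 2 on the log2 scale, M-EPCs against F-EPCs kept 1 call higher and 1 lower, M-EPCs against OVX-EPCs 2 and F-EPCs against OVX-EPCs 2, by construction of the threshold. Leaving out each library gave 2 to 3 members higher and 3 to 5 lower for M-EPCs against F-EPCs, 21 to 23 higher and 0 lower for M-EPCs against OVX-EPCs, and 24 higher and 0 lower for F-EPCs against OVX-EPCs. Without OVX-EPC replicate 2, Usp18 (0.98) and Dhx58 (0.99) fell under the fold threshold between M-EPCs and OVX-EPCs. Oas1c passed between M-EPCs and F-EPCs by edgeR (-1.02), by DESeq2 (-1.02) and with the median of ratios (-1.51). It also passed without M-EPC replicate 1 (-1.44) or 3 (-1.41), but without M-EPC replicate 2 it was -0.63 and under the fold threshold. Near the fold threshold in that table, Ifit2 did not pass without F-EPC replicate 2 (0.999), and Ifi27l2a did not pass without F-EPC replicate 1 (-0.99) or 2 (-0.999) or without M-EPC replicate 2 (-0.94).

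Recomputed size factors moved the zero point. The median shift in log2 fold change, taken gene by gene over all listed genes, was 0.08 with TMM and -0.34 with the median of ratios between M-EPCs and F-EPCs. It was 0.19 and 0.61 between M-EPCs and OVX-EPCs, and 1.10 and 1.10 between F-EPCs and OVX-EPCs. The members' medians became 1.74 and 2.17 for M-EPCs against OVX-EPCs, and 2.70 and 2.69 for F-EPCs against OVX-EPCs. Calls over all listed genes became 255 higher and 145 lower (TMM) or 255 and 148 (median of ratios) for F-EPCs against OVX-EPCs, beside 250 and 546, and with the median of ratios 548 and 515 for M-EPCs against OVX-EPCs, beside 537 and 764, and 620 and 1047 for M-EPCs against F-EPCs, beside 1012 and 1031. In that last table Ifit2 (0.67) then missed the fold threshold, and with TMM Ifi27l2a (-0.92) did. These factors rest on screened genes alone.

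Values set across tables moved with it. Between F-EPCs and OVX-EPCs, Ifit2 was 2.13 with TMM and 2.12 with the median of ratios, Zbp1 1.69 and 1.69, and Ifit1bl1 turned from -0.60 to 0.49 and 0.48. Leaving out a library gave 0.98 to 1.02 for Ifit2, 0.49 to 0.63 for Zbp1 and -0.98 to -0.30 for Ifit1bl1. Between M-EPCs and F-EPCs, the median of ratios turned Ifit1 (-0.0833), Ifit3 (-0.29), Ifit3b (-0.0567), Rsad2 (-0.0558), Mx1 (-0.0878), Oas1b (-0.22), Rtp4 (-0.19), Xaf1 (-0.21) and Ifi44 (-0.11) to lower in M-EPCs, and TMM turned Mx2 (0.0481) to higher.

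Libraries with the same number did not deviate together over the listed genes (correlations of deviations from -0.02 to 0.03), which does not show whether they were prepared together. With the replicate number as a replicate block, the calls were 3 higher and 4 lower, 23 higher and 24 higher in the 3 tables, as without it. Ifit1bl1 and Oas1c were low in count, at 15 to 155 and 26 to 120 reads per library, and whether depth limits them was not tested.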
